A study of Homo sapiens with 12 samples.

Results

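The genes described here encode the subunits of the proteasome, the protease complex that degrades ubiquitin-tagged proteins, together with a few of its assembly chaperones. They were taken as every probe whose gene symbol begins with PSMA, PSMB, PSMC or PSMD followed by a number, with pseudogenes, antisense genes and 1 further symbol left out. This gave 34 of the 20046 genes named on the array, through 55 of its 47231 probes. For 33 of these genes, 50 probes entered the tests, because some group had all 3 of its arrays above background there. The 5 that were not were both probes of PSMB11, a thymus-specific beta subunit, and 3 of the 4 probes of PSMD12, a lid subunit. PSMA7, PSMC5, PSMD7 and PSMD13 carried no probe under these symbols here and were not analysed here.

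RNA was measured on 12 single-colour Illumina beadchip arrays from 2 human B-cell lymphoma lines. TMD8 is an activated B-cell-like diffuse large B-cell lymphoma line, and DOHH2 derives from a transformed follicular lymphoma of germinal-centre type. In each line 3 arrays came from cells given DMSO, the vehicle, and 3 from cells given 300 nM ST5589, an atypical retinoid that the labels describe as a derivative of ST1926. No further allele or agent is named in the labels, and each line stands for itself alone. How long the cells were exposed, and whether replicate arrays came from separate cultures, was not given in the sources used. The p-values therefore cover the spread between arrays alone, and that spread may be technical.

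The proteasome has a barrel-shaped core particle and a regulatory particle that caps it. The core is built from outer rings of alpha subunits (PSMA genes), which gate the entry of substrates, and inner rings of beta subunits (PSMB genes), of which PSMB6, PSMB7 and PSMB5 carry the proteolytic sites. In lymphoid cells and after interferon, inducible beta subunits such as PSMB8 and PSMB10 take the places of PSMB5 and PSMB7 and form the immunoproteasome, which shapes the peptides shown on MHC class I. The regulatory particle consists of a base of ATPases (PSMC genes), which unfold the substrate, with scaffold and receptor subunits (PSMD1, PSMD2, PSMD4), and a lid that removes ubiquitin.

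Promoter windows from RefSeq (GRCh38.p14, 250 bases before to 50 after the annotated start) were found for 30 of the 34 genes, as 36 windows of 300 bases. On both strands, and with overlaps between motifs allowed, the core of the interferon-stimulated response element (GAAA, any 2 bases, GAAA) occurred in 4 of the 36 windows (11.1%, against 3.57% of all 35116 windows): those of PSMB8, PSMB10, PSMA4 and PSMB4. The core of the gamma-activated site (TTCNNNGAA) occurred in 7 (19.4% against 7.66%), that of the antioxidant response element (TGACNNNGC) in 8 (22.2% against 13.3%) and the CCAAT box (CCAAT) in 15 (41.7% against 34.6%). Windows of PSMB8 and PSMB10 are shown because these are the inducible subunits with tested probes, and a window of each holds the interferon core. Those of PSMB2 and PSMD8 are shown because these genes had the greatest difference between the lines in either direction. Capitals mark any of the 4 motifs. In PSMB8 they are the gamma-activated core, whose pattern reads alike on both strands, at bases 186 to 194, and the interferon core on the opposite strand at bases 247 to 256. In PSMB10 they are the interferon core at bases 230 to 239, in PSMB2 a CCAAT box at bases 249 to 253, and in PSMD8 a CCAAT box on the opposite strand at bases 163 to 167.
PSMB8, chr6:32843998-32844297, minus strand: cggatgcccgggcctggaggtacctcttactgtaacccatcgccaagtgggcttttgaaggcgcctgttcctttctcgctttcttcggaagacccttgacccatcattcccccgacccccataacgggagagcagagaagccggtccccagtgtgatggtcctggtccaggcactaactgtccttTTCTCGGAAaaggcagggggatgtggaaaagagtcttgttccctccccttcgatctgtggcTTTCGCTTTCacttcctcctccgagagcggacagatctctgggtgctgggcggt
PSMB10, chr16:67936801-67937100, minus strand: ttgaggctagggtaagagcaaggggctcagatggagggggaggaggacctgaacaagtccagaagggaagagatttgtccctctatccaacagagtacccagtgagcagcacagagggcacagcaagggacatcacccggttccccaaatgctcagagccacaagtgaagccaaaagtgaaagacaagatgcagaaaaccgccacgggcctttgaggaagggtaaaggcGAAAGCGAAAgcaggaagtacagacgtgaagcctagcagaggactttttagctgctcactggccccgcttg
PSMB2, chr1:35641477-35641776, minus strand: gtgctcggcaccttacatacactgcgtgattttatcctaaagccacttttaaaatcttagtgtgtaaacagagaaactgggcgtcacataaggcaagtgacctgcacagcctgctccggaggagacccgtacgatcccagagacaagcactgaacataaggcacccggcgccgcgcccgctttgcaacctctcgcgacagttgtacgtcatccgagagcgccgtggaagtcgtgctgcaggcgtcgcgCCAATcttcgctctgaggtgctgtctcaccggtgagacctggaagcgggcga
PSMD8, chr19:38374321-38374620, plus strand: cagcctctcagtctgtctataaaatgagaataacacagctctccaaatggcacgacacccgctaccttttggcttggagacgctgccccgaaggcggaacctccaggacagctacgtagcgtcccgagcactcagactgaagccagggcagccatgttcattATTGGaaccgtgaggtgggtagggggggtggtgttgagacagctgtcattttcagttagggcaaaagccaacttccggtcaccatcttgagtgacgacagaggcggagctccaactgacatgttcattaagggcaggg
PSMB8 has a second annotated start, whose window held none of the 4 motifs. A match says only that these letters are present and was not tested as a binding site.

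Values below are log2 intensities after background correction and quantile normalization, and differences are differences of their group means, so that 1 unit is a doubling. Levels of different probes cannot be set against each other. The defining B-cell genes CD79A, CD79B and MS4A1 were above background in all arrays of every group, while PAX5 was above background in no array of 3 of the 4 groups. The germinal-centre gene MME was above background in all DOHH2 arrays and in no TMD8 array, whereas BCL6 was above background in all TMD8 arrays and in none of DOHH2 with DMSO. Of the other germinal-centre markers, MYBL1 was so in all TMD8 but not all DOHH2 arrays, LMO2 in all arrays and S1PR2 in none. The summed intensity of these markers over background was 1499 to 3592 in TMD8 arrays and 238 to 655 in DOHH2 arrays. The 5 activated B-cell markers were above background in all 12 arrays. Of 5 T and NK cell markers, CD3E was above background in no array, and CD2 was so in all arrays of TMD8 with DMSO and of DOHH2 with ST5589. Of 5 myeloid markers, CD68 was above background in all 12 arrays, CD14 in all TMD8 arrays, LYZ in all DOHH2 arrays and CSF1R in none. Of 6 stromal and epithelial markers, none was above background in all arrays of every group. The lines were run on separate chips, and a difference between lines cannot be told apart from a difference between chips. Within a chip the DMSO arrays held the first places, so treatment and place cannot be told apart.

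Some arrays lay apart, on the proteasome probes as over the whole array. In TMD8 with DMSO array 1, 10 of the 50 probes were over 0.3 from their group mean. The same count was 8 in DOHH2 with DMSO array 1 and 11 in DOHH2 with ST5589 array 3, against 0 to 5 in the other arrays. Of all probes tested, 9.66%, 10.8% and 9.70% were that far off in these 3 arrays, 7.35% in DOHH2 with ST5589 array 1, and at most 2.31% in the others. Results below are also given without the 3 arrays where that changes them, a choice made after the values were seen. Array 2 of DOHH2 with ST5589 showed signal at all 33 probes that the other 5 DOHH2 arrays left at background although TMD8 was bright there. The median of that signal was 4.16% of the level in TMD8, and its part in the values of that array was not tested.

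**Figure D1:**
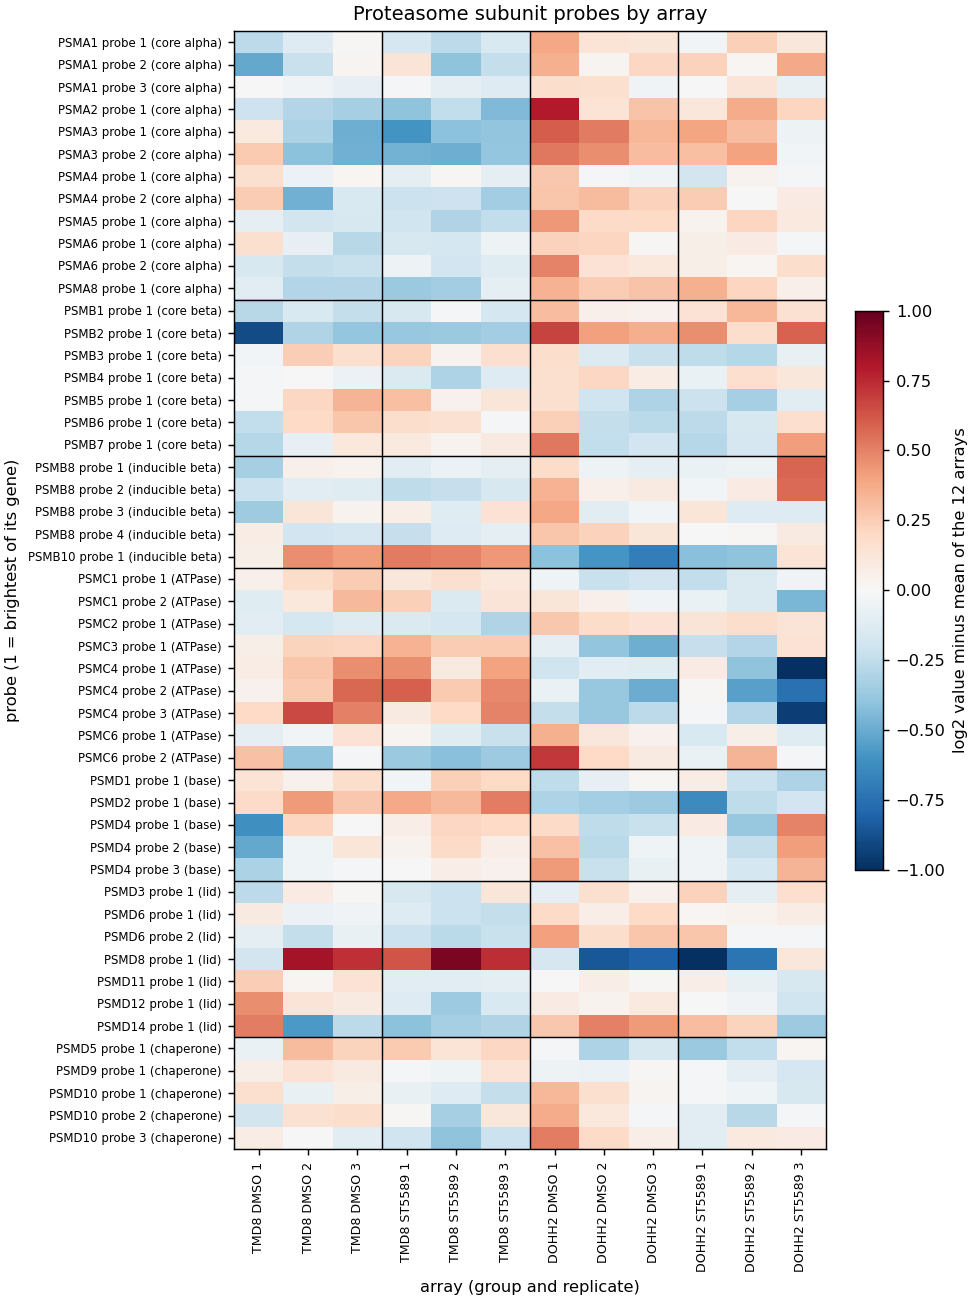
Log2 value of each of the 50 tested proteasome probes (rows, grouped by class, with probe 1 the brightest of its gene) in each of the 12 arrays (columns), as the difference from the mean of the 12 arrays. The alpha ring is mostly blue in TMD8 and red in DOHH2, PSMB10, PSMD2, PSMD8 and PSMC4 show the opposite, and no block changes colour between DMSO and ST5589 within a line.

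Between the lines, the alpha ring of the core was the class most uniform in sign. Under DMSO all 12 alpha probes, for 7 genes, were higher in DOHH2 than in TMD8 by sign, and 9 of the 12 passed the test (limma, adjusted p under 0.05 over all 21533 probes tested), none of them as lower. These include PSMA8, called under both treatments, which passed the filter through the DOHH2 arrays alone, a selection that favours a difference. Among the 10 alpha probes above background in all 12 arrays, 8 were higher under DMSO and 5 under ST5589, with none lower. The median difference of the alpha probes was 0.42, against -0.01 for all probes. Under ST5589 all 12 were again positive, 6 passed, and the median was 0.37 against -0.02. With the 3 arrays left out, 8 of the 12 were higher under DMSO and 7 under ST5589, again with none lower. In that fit 54.3% and 55.9% of all probes were called in either direction. The brightest PSMA4 probe turned to -0.006 and -0.02. Scaled to a common median, the arrays kept all 12 alpha probes positive, but 3 passed the test under DMSO and 2 under ST5589. For all proteasome probes together, 21 of 50 (42%) differed between the lines under DMSO, 14 higher and 7 lower in DOHH2, where 46.1% of all probes tested differed (23.9% higher and 22.2% lower). Under ST5589 25 of 50 (50%) differed, 14 higher and 11 lower, against 46.4% of all probes (23.8% higher and 22.6% lower). Among the 47 proteasome probes above background in all 12 arrays, 12 were higher and 7 lower under DMSO, and 13 higher and 11 lower under ST5589. With all probes held to that filter, the called share was 40.4% of proteasome probes against 48.4% of all under DMSO. Under ST5589 it was 51.1% against 48.8%. Scaling to a common median gave 4 higher and 4 lower under DMSO (16%, against 31.3% of all probes), and 3 higher and 4 lower under ST5589 (14% against 29.8%). The direction of a call held from vehicle to compound for 17 probes, 10 higher and 7 lower. They stand for 9 genes higher, PSMA8 among them, and 6 lower. The same count was not taken over all probes, so it cannot be read as particular to the proteasome. Each array measured RNA of a whole culture, so fewer cells with a transcript and less of it per cell cannot be told apart.

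PSMA3 and PSMA2 led the alpha ring. PSMA3 in TMD8 read 11.54, 11.13 and 10.96 with DMSO and 10.85, 11.04 and 11.06 with ST5589. PSMA3 in DOHH2 read 12.05, 11.97 and 11.78 with DMSO and 11.84, 11.76 and 11.40 with ST5589. The lines did not overlap under either treatment. The difference was 0.72 (SE 0.15, limma adjusted p = 0.00141) under DMSO and 0.69 (SE 0.15, limma adjusted p = 0.00203) under ST5589, and a second PSMA3 probe gave 0.65 and 0.67. PSMA2 in TMD8 read 9.25, 9.16 and 9.12 with DMSO and 9.04, 9.20 and 9.01 with ST5589. PSMA2 in DOHH2 read 10.24, 9.59 and 9.73 with DMSO and 9.56, 9.82 and 9.66 with ST5589. Here too every DOHH2 array lay above every TMD8 array, by a mean of 0.68 (limma adjusted p = 0.00131) and 0.60 (limma adjusted p = 0.0034), with DOHH2 DMSO array 1 the highest. Scaled to a common median, the arrays gave similar PSMA2 differences (0.69 and 0.61) that did not pass the test (limma adjusted p = 0.0641 and 0.103). At the other end, the brightest probe of PSMA4 differed by 0.03 under DMSO and 0.00 under ST5589 with overlapping groups, while its second probe gave 0.40 (limma adjusted p = 0.0358) and 0.37 (limma adjusted p = 0.0507). PSMA8, the testis-specific alpha subunit, was above background in all DOHH2 arrays but in only 1 of 3 TMD8 arrays of either treatment, and its differences of 0.53 and 0.48 lie near the floor of the array.

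The beta ring did not move as a block. Under DMSO 2 of the 7 constitutive beta probes were higher in DOHH2 and none lower, where 23.9% of all probes were higher and 22.2% lower. Under ST5589 3 beta probes were higher and 2 lower, against 23.8% and 22.6% of all probes. Without the 3 arrays the beta counts became 2 higher and 4 lower under DMSO, and 3 higher and 4 lower under ST5589. In that fit 54.3% and 55.9% of all probes were called. PSMB2, a structural beta subunit without a proteolytic site, showed the greatest positive difference of any member with all arrays. PSMB2 in TMD8 read 9.82, 10.42 and 10.34 with DMSO and 10.34, 10.35 and 10.38 with ST5589. PSMB2 in DOHH2 read 11.40, 11.13 and 11.08 with DMSO and 11.18, 10.90 and 11.31 with ST5589. No DOHH2 array reached down to a TMD8 array. The level was 2.01-fold higher in DOHH2 under DMSO (log2 difference 1.01, SE 0.15, limma adjusted p = 8.97e-05) and 1.71-fold higher under ST5589 (limma adjusted p = 0.00082). TMD8 DMSO array 1, among the arrays that lay apart, was the low one for PSMB2. Without the 3 arrays the log2 differences of PSMB2 were 0.72 and 0.68. Those of PSMA3 were then greater, at 0.82 and 0.81 on its brightest probe and 0.83 and 0.79 on its other probe.

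The constitutive catalytic subunits differed less. PSMB5, whose site has chymotrypsin-like activity and is the main target of clinical proteasome inhibitors, read 11.05, 11.27 and 11.40 in TMD8 with DMSO and 11.37, 11.11 and 11.19 with ST5589. PSMB5 in DOHH2 read 11.23, 10.87 and 10.76 with DMSO and 10.85, 10.73 and 10.96 with ST5589. The lines overlapped under DMSO, where the difference was -0.29 (limma adjusted p = 0.0866), and did not overlap under ST5589, where it was -0.37 (SE 0.13, limma adjusted p = 0.0313). That PSMB5 call was lost without array 1 or 3 of TMD8 or array 1 or 2 of DOHH2 with ST5589 (limma adjusted p = 0.0624 to 0.125) and with the replicate block (0.0674). PSMB6, with caspase-like activity, read 11.68, 12.12 and 12.20 in TMD8 with DMSO and 12.10, 12.08 and 11.91 with ST5589. PSMB6 in DOHH2 read 12.17, 11.69 and 11.66 with DMSO and 11.66, 11.77 and 12.09 with ST5589. The groups overlapped, with differences of -0.17 (limma adjusted p = 0.436) and -0.19 (limma adjusted p = 0.373). PSMB7, with trypsin-like activity, read 11.40, 11.60 and 11.79 in TMD8 with DMSO and 11.78, 11.72 and 11.77 with ST5589. PSMB7 in DOHH2 read 12.21, 11.44 and 11.49 with DMSO and 11.40, 11.51 and 12.10 with ST5589. In both DOHH2 groups 1 array stood above the other 2, and the differences of 0.11 and -0.09 did not pass the test (limma adjusted p = 0.68 and 0.752). These values rested on the arrays that lay apart: without them, PSMB5, PSMB6 and PSMB7 were lower in DOHH2 under DMSO by log2 differences of -0.52, -0.49 and -0.23 (limma adjusted p = 0.000879, 0.000595 and 0.0477), so that the sign for PSMB7 turned. Under ST5589 the same fit gave -0.42, -0.32 and -0.30.

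The inducible catalytic subunits differed from each other. PSMB10 in TMD8 read 12.34, 12.75 and 12.70 with DMSO and 12.81, 12.79 and 12.72 with ST5589. PSMB10 in DOHH2 read 11.88, 11.70 and 11.60 with DMSO and 11.87, 11.88 and 12.42 with ST5589. The highest DOHH2 array within a treatment stayed below the lowest TMD8 array. The level was 1.83-fold lower in DOHH2 under DMSO (log2 difference -0.87, SE 0.15, limma adjusted p = 0.000284) and 1.64-fold lower under ST5589 (log2 difference -0.71, limma adjusted p = 0.00141), where the call was lost when arrays were scaled to a common median (-0.47, limma adjusted p = 0.11). The brightest probe of PSMB8 in TMD8 read 9.64, 10.03 and 10.01 with DMSO and 9.87, 9.92 and 9.88 with ST5589. In DOHH2 that probe read 10.16, 9.92 and 9.88 with DMSO and 9.91, 9.92 and 10.55 with ST5589. The groups overlapped, and its differences of 0.09 under DMSO and 0.24 under ST5589 did not pass the test (limma adjusted p = 0.662 and 0.242). PSMB8 has 4 tested probes, and these gave different values. The second gave 0.31 (limma adjusted p = 0.0719) under DMSO and 0.42 (limma adjusted p = 0.0197) under ST5589. The third gave 0.15 and -0.08, neither past the test, with a sign under ST5589 opposite to the called probe. The fourth, near background, gave 0.30 under DMSO, called higher in DOHH2, and 0.18 under ST5589, not called. It was above background in all DOHH2 arrays and in 2 of 3 arrays of both TMD8 groups, so it passed the filter through DOHH2 alone. Without the 3 arrays the brightest PSMB8 probe gave -0.12 under DMSO, with its sign turned, and 0.03 under ST5589, and PSMB10 gave -1.07 and -0.89. The difference of PSMB10 was thus called under both treatments with its single probe, and that of PSMB8 depended on the probe.

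**Figure D2:**
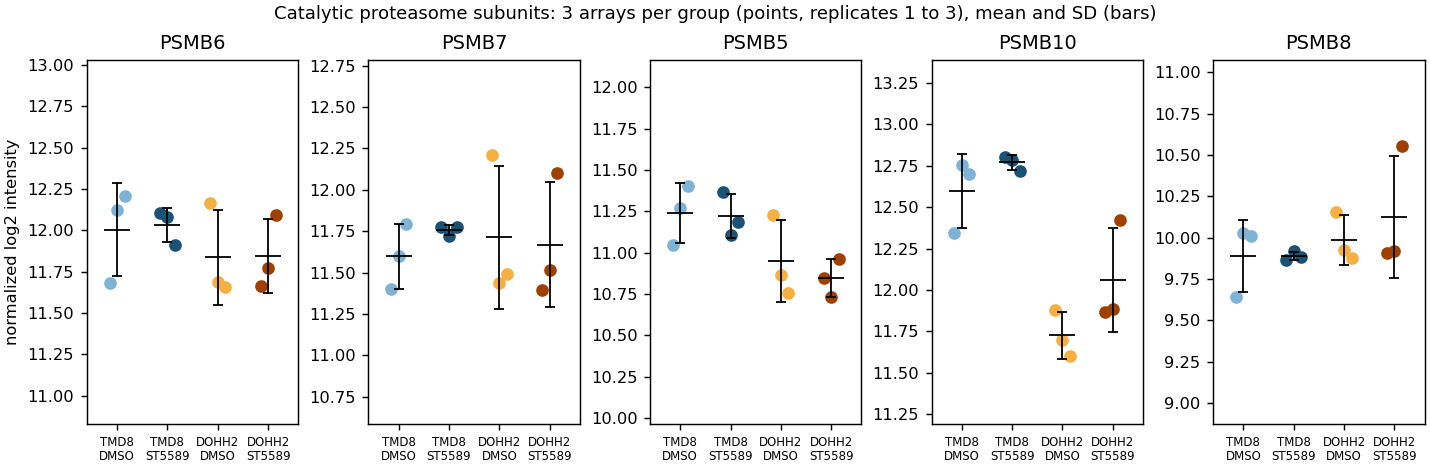
Normalized log2 intensity of the constitutive catalytic subunits PSMB6, PSMB7 and PSMB5 and the inducible subunits PSMB10 and PSMB8 (brightest probe) in each of the 3 arrays of the 4 groups, with horizontal bars for the mean and error bars for the SD. All DOHH2 arrays of PSMB10 but 1 lie at or below 11.88 and all TMD8 arrays lie at or above 12.34, while the other panels overlap between lines under DMSO.

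In the regulatory particle the median of the ATPase probes had the opposite sign to that of the alpha ring. This difference between classes is described and was not tested. Of 9 ATPase probes, for 5 genes, 1 was higher and 4 were lower in DOHH2 under DMSO, with a median of -0.31. Over all probes 23.9% were higher and 22.2% lower. Under ST5589 2 ATPase probes were higher and 5 lower, with a median of -0.30, against 23.8% and 22.6% of all probes. PSMC4 holds 3 of the 9 ATPase probes. By the brightest probe of each of the 5 genes, 2 were positive and 3 negative in both comparisons. Of these genes 1 was called higher and 2 lower under DMSO, and 1 higher and 3 lower under ST5589. Leaving out the 3 arrays gave 2 of the 9 probes higher and 5 lower in both, where 54.3% and 55.9% of all probes were called. PSMC4 in TMD8 read 9.58, 9.79 and 9.97 on its brightest probe with DMSO and 9.97, 9.60 and 9.91 with ST5589. PSMC4 in DOHH2 read 9.31, 9.41 and 9.39 with DMSO and 9.60, 9.11 and 8.49 with ST5589. The lines did not overlap under either treatment, though under ST5589 the nearest arrays of both stood at 9.60. The difference was -0.41 under DMSO (limma adjusted p = 0.128) and -0.76 under ST5589 (limma adjusted p = 0.00882). The other 2 PSMC4 probes were lower in DOHH2 in both comparisons, by log2 differences of -0.61 and -0.75 under DMSO and -0.87 and -0.68 under ST5589. DOHH2 ST5589 array 3 was the lowest array for all 3 PSMC4 probes, and without the 3 arrays the brightest gave -0.47 in both comparisons. PSMC3 was lower in DOHH2 (-0.49 and -0.41, limma adjusted p = 0.00618 and 0.0162), and PSMC2 was higher (0.33 and 0.35, limma adjusted p = 0.00287 and 0.00204).

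Among the base scaffolds and receptors, PSMD2, which docks ubiquitin-binding shuttle proteins, was the only gene called with all arrays. That was 1 of 5 probes under either treatment, where 46.1% and 46.4% of all probes were called. PSMD2 in TMD8 read 10.39, 10.62 and 10.46 with DMSO and 10.58, 10.52 and 10.71 with ST5589. PSMD2 in DOHH2 read 9.89, 9.85 and 9.83 with DMSO and 9.56, 9.94 and 10.0045 with ST5589. All DOHH2 arrays lay below all TMD8 arrays, by a log2 difference of -0.63 under DMSO (SE 0.11, limma adjusted p = 0.000454) and -0.77 under ST5589 (limma adjusted p = 8.95e-05). When arrays were scaled to a common median the PSMD2 differences were -0.63 and -0.69, and neither passed (limma adjusted p = 0.0801 and 0.0586). PSMD4, a ubiquitin receptor with 3 probes, gave -0.09 to 0.17 over both comparisons, with overlapping groups and no call. With the 3 arrays left out all its probes were negative in both comparisons, and the brightest was lower in DOHH2 (-0.33 and -0.30, limma adjusted p = 0.0461 and 0.0485).

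In the lid, PSMD8, a structural subunit, had the greatest negative difference of any member. PSMD8 in TMD8 read 9.39, 10.41 and 10.31 with DMSO and 10.21, 10.52 and 10.31 with ST5589. PSMD8 in DOHH2 read 9.41, 8.73 and 8.77 with DMSO and 8.34, 8.85 and 9.69 with ST5589. Under DMSO the lines met, because TMD8 array 1 was the low one of its group and DOHH2 array 1 the high one, and under ST5589 they did not overlap. The level was 2.09-fold lower in DOHH2 under DMSO (log2 difference -1.07, SE 0.32, limma adjusted p = 0.0142) and 2.61-fold lower under ST5589 (log2 difference -1.38, limma adjusted p = 0.0028). The call under DMSO was lost when either of arrays 2 and 3 of TMD8 or of DOHH2 was left out (limma adjusted p = 0.0529 to 0.0674), and without the 3 arrays the log2 differences were -1.58 and -1.72. PSMD14, the deubiquitinase of the lid, gave 0.51 (limma adjusted p = 0.0851) and 0.40 (limma adjusted p = 0.166), and 0.88 and 0.60 without the 3 arrays (limma adjusted p = 1.16e-05 and 0.000131). Of the 5 probes for assembly chaperones of the base, 0 were called under DMSO with all arrays, against 46.1% of all probes. Under ST5589 1 of the 5 was called, against 46.4% of all probes. That was PSMD5, lower in DOHH2 (-0.40, limma adjusted p = 0.0169). PSMD5 was lower under both treatments when the 3 arrays were left out (-0.50 and -0.51, limma adjusted p = 0.000559 and 0.000218). With all arrays PSMD10, the highest of the 3 genes, gave 0.07 under ST5589.

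**Figure D3:**
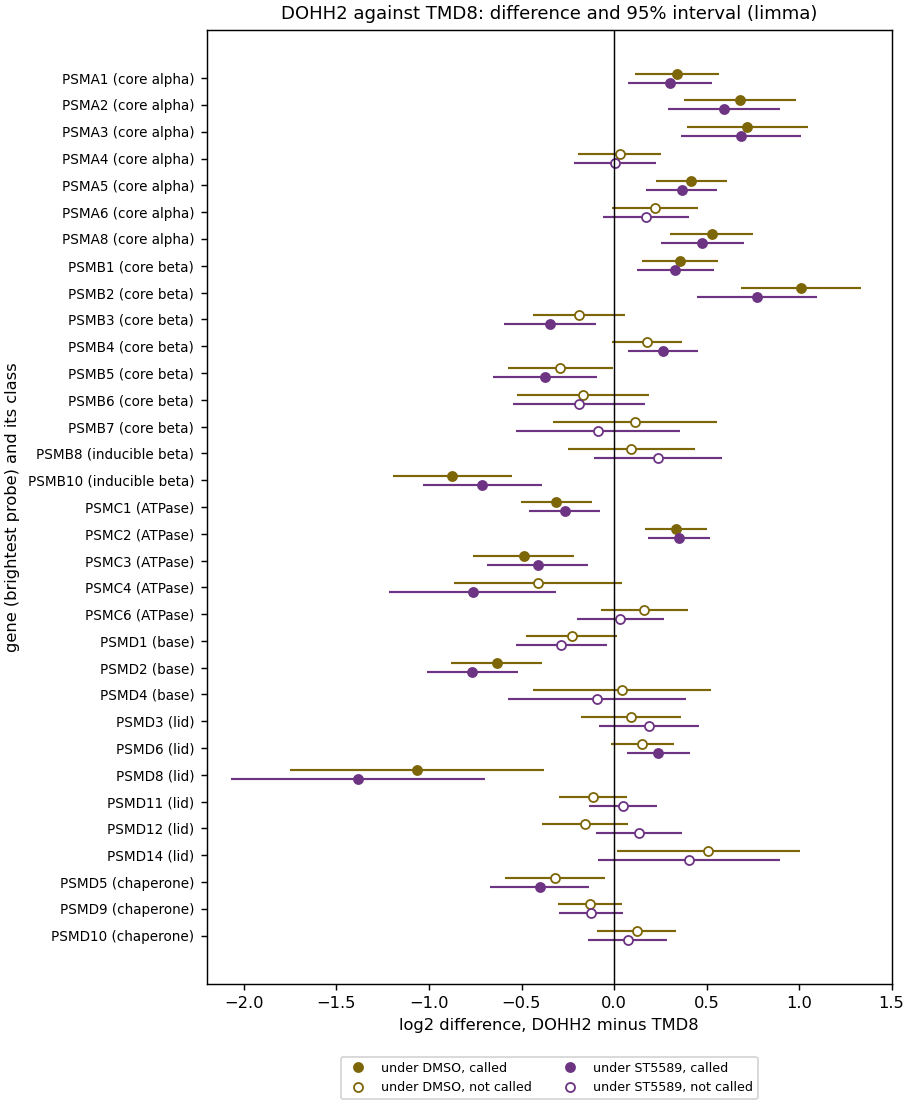
Log2 difference between DOHH2 and TMD8 under DMSO and under ST5589 for the brightest probe of each of the 33 tested genes, with 95% intervals from limma and filled points where the adjusted p was under 0.05. PSMA probes lie at or to the right of 0, PSMB2 at 1.01 and 0.77, and PSMD8 at -1.07 and -1.38.

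ST5589 against DMSO addressed what the compound did within each line, and no proteasome probe passed the test. In TMD8, where 0.543% of all probes tested were called, the count was 0 of 50, and in DOHH2, where 0.0139% were called, it was also 0 of 50. At an unadjusted p under 0.05 by limma, 0 probes were higher and 4 lower in TMD8 (3.24% and 2.86% of all probes), and 1 was higher and 2 lower in DOHH2 (2.08% and 2.19% of all probes). The median difference of the 50 probes was -0.04 in TMD8 and -0.10 in DOHH2, against 0.00 for all probes in both. By sign 31 of 50 were negative in TMD8 and 39 in DOHH2, where 49% and 49.6% of all probes were. Without the 3 arrays the medians were -0.06 and -0.04, with 34 of 50 negative in each line. Scaled to a common median, the arrays gave medians of -0.23 and -0.26, with 45 and 47 of 50 negative, against -0.07 and -0.04 for all probes. Under quantile normalization, the 95% interval of every one of the 50 probes lay within 1 log2 unit of 0 in both lines. That held for 99.1% of all probes in TMD8 and 99.7% in DOHH2. Intervals of 37 proteasome probes in TMD8 and 38 in DOHH2 lay within 0.5, against 85.3% and 85.9% of all probes. They cover the spread between arrays alone, are not adjusted for the number of probes, and do not bound a difference between cultures. Scaled to a common median, PSMD12 in TMD8 gave -0.62 (SE 0.23). The groups did not overlap for 2 probes above and 7 below DMSO in TMD8, where 8.02% and 7.84% of all probes did so, and for 0 above and 5 below in DOHH2, against 3.9% and 4.18%.

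Class by class the differences after ST5589 were small. The brightest probe of each of the 7 alpha genes was slightly negative in both lines, between -0.23 (PSMA3) and -0.04 (PSMA8) in TMD8 and between -0.27 (PSMA3) and -0.09 (PSMA8) in DOHH2. Without the 3 arrays 8 of the 12 alpha probes were negative in each line, against 10 and 11 with all arrays. The constitutive beta probes ranged from -0.16 (PSMB4) to 0.17 (PSMB2) in TMD8 and from -0.14 (PSMB3) to 0.08 (PSMB1) in DOHH2. The catalytic subunits PSMB5, PSMB6 and PSMB7 gave -0.02, 0.03 and 0.16 in TMD8 and -0.10, 0.01 and -0.04 in DOHH2, with overlapping groups throughout. Among the ATPases the range was -0.11 (PSMC6) to 0.12 (PSMC3) in TMD8 and -0.31 (PSMC4) to 0.20 (PSMC3) in DOHH2. The base genes lay between 0.02 (PSMD1) and 0.29 (PSMD4) in TMD8 and between -0.04 (PSMD1) and 0.16 (PSMD4) in DOHH2. The chaperones lay between -0.20 (PSMD10) and 0.05 (PSMD5) in TMD8 and between -0.25 (PSMD10) and -0.04 (PSMD5) in DOHH2.

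The inducible subunits showed no call either. PSMB8 gave -0.003 in TMD8 and 0.14 in DOHH2 on its brightest probe. PSMB10 gave 0.17 in TMD8 and 0.33 in DOHH2, the highest value of any member in that line (95% interval 0.01 to 0.65, limma adjusted p = 0.967). In the DOHH2 values above, ST5589 array 3 is the high one at 12.42, and the other treated arrays, at 11.87 and 11.88, overlap the DMSO arrays. The difference was 0.23 in DOHH2 and 0.04 in TMD8 when the 3 arrays were left out.

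The lid held the lowest adjusted p among the members. PSMD12 in TMD8 read 10.45, 10.11 and 10.08 with DMSO and 9.86, 9.62 and 9.83 with ST5589. Every treated array lay below every DMSO array, by a log2 difference of -0.44 (SE 0.11, limma adjusted p = 0.141). PSMD12 in DOHH2 read 10.07, 10.02 and 10.08 with DMSO and 9.98, 9.95 and 9.79 with ST5589, again without overlap, with a difference of -0.15 (limma adjusted p = 0.967). In TMD8 the adjusted p was 0.0343 when arrays were weighted by their quality (difference -0.31) and 0.182 without the 3 arrays (difference -0.32). The lid otherwise ranged up to 0.31 (PSMD8) in TMD8, and from -0.34 (PSMD14) to 0.07 (PSMD3) in DOHH2.

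The effect of ST5589 itself was compared between the lines as a difference of effects, DOHH2 minus TMD8. None of the 50 probes passed the limma test, where 0.0139% of all probes did, and 0 had an unadjusted p under 0.05 by the same fit, against 2.44% of all probes. The median difference of effects was -0.05, against 0.00 for all probes, and the values ran from -0.35 (PSMC4) to 0.29 (PSMD12). For the inducible subunits it was 0.14 for PSMB8 (95% interval -0.34 to 0.63) and 0.16 for PSMB10 (95% interval -0.29 to 0.61). The intervals of 49 of the 50 probes lay within 1 log2 unit of 0, against 98.4% of all probes, and that of PSMD8 reached -1.29. These intervals are not adjusted for the number of probes. With 3 arrays a group, a difference whose interval excludes 0 can go without a call, as PSMB10 did after ST5589 in DOHH2.

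**Figure D4:**
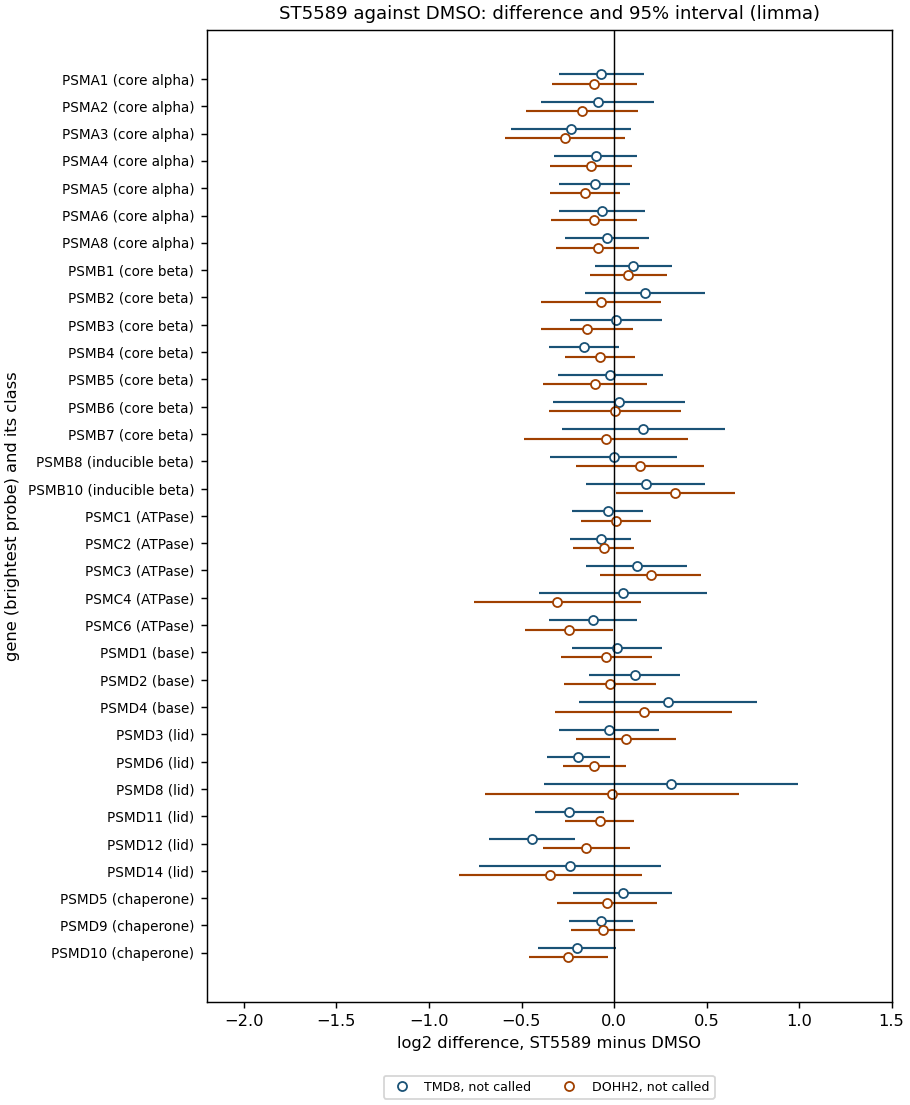
Log2 difference between ST5589 and DMSO in TMD8 and in DOHH2 for the brightest probe of each of the 33 tested genes, with 95% intervals from limma. All points are open because none was called, and they lie between -0.44 (PSMD12, TMD8) and 0.33 (PSMB10, DOHH2).

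The rest of the pathway was followed in a list of 39 genes for activators, assembly factors, transcription factors, ubiquitin and its activating enzymes, of which 33 had a tested probe (47 probes). None of the 47 was called after ST5589 in either line or in the difference of effects by limma. Between the lines 17 probes were higher and 10 lower in DOHH2 under DMSO, and 18 higher and 10 lower under ST5589 (57.4% and 59.6% of the 47, against 46.1% and 46.4% of all probes). PSME1, a subunit of the interferon-inducible activator that opens the core, was higher in DOHH2 by 0.56 under DMSO (limma adjusted p = 0.000177) and 0.59 under ST5589 (limma adjusted p = 0.000108), and its partner PSME2 gave 0.23 and 0.28 without passing the test. PSME4, another activator, was higher by 0.76 and 0.54. POMP, the chaperone of core assembly, gave 0.03 and 0.04 with overlapping groups. The interferon-responsive transcription factor IRF1 was higher in DOHH2 by 1.32 and 1.30, and NFE2L2, which drives the antioxidant response, by 1.09 and 1.07. IRF1 varied widely between DOHH2 arrays (SD 0.53 with DMSO and 0.86 with ST5589, against 0.34 and 0.11 in TMD8). On the other side UBA1, the main ubiquitin-activating enzyme, was lower by log2 differences of -0.84 and -0.85, and NGLY1, the enzyme that processes NFE2L1, by -0.84 and -0.57. IRF1 and PSME1 were higher in the line in which PSMB10 was lower, and a link between these differences was not tested.

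NFE2L1 is the transcription factor that raises proteasome subunit genes when proteasome activity falls. NFE2L1 in TMD8 read 7.63, 7.99 and 7.90 with DMSO and 8.36, 8.38 and 8.29 with ST5589. All treated arrays lay above all DMSO arrays, by 0.51 (SE 0.11), which did not pass the test (limma adjusted p = 0.0787). It was 0.0873 without the 3 arrays and 0.00558 with array weights. NFE2L1 in DOHH2 read 8.09, 8.33 and 8.26 with DMSO and 8.56, 8.27 and 8.51 with ST5589, which overlapped, with a difference of 0.22 (limma adjusted p = 0.967). Between the lines it was higher in DOHH2 under DMSO by 0.39 (limma adjusted p = 0.0111) and by 0.10 under ST5589, which did not pass the test (limma adjusted p = 0.476).

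Some members share sequence with named pseudogenes, 40 in all for 17 of the 34 genes in RefSeq, with PSMC1 having the most at 13. PSMD8 has 1 and PSMB2 and PSMB10 have 0. Whether a probe also bound pseudogene transcripts was not tested.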

How the data were processed

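The authors deposited linear probe intensity values without normalization. They also deposited processed log2 values. GenomeStudio is named in the submitters' processing notes. Its version, and how the authors' log2 values were normalized, is not given in the sources used. Intensities were corrected with normexp (offset 50), quantile normalized and taken to log2 with limma 3.58.1 in R 4.3.3. A probe was above background where it exceeded its array's modal intensity by 2.33 SD, the SD being mirrored from values under the mode. The filter kept a probe where some group had all 3 of its arrays above background, and the 21533 kept probes were tested in a single limma fit (lmFit and eBayes) with 1 coefficient per group, with Benjamini-Hochberg adjustment over all of them. The number of arrays limits the precision. Probe symbols are those of the platform annotation, brought up to date by gene identifier: 30113 of 47231 probes had 1 symbol, 8 several and 17110 none here. The fit was tested on simulated data with known changes.

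Groups came from the labels. ST5589 was compared with DMSO within TMD8 and within DOHH2, these effects were compared with each other, and DOHH2 was compared with TMD8 under each treatment. These comparisons share arrays. Members and lists were chosen with earlier results of these data known. Every array value is given for PSMB5, PSMB6, PSMB7, PSMB8, PSMB10 and the 3 called genes with the largest difference in each direction between lines. The highest and lowest member of a class, and PSME1, PSME2, POMP, NFE2L1 and up to 6 called genes of the pathway list, are given by value, and other named genes were chosen after their values were seen. The brightest probe stands for its gene. Arrays with the same replicate number in a line did not deviate together (correlations -0.46 to -0.00), so the numbers were not used as pairs. Alternatives covered the normalization, background, filter, probe choice, deposited log2 values, array weights, a replicate block and each array left out.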

Additional observations from a re-analysis of the deposited data

How the results depend on the processing

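The absence of calls after ST5589 (0 of 50 in TMD8, in DOHH2 and in the difference of effects) was the same under 24 of 25 alternatives; array weights gave 1 call in TMD8, PSMD12. When each array was scaled to a common median instead, the median difference in TMD8 was -0.2256 (-0.07 for all probes) and in DOHH2 -0.2637 (-0.04), and the line comparisons gave 8 calls (4 higher, 4 lower) under DMSO and 7 (3 and 4) under ST5589, against 21 and 25 (all probes 31.3% and 29.8%, against 46.1% and 46.4%); the cause was not tested. The share of these calls that were higher was 50% and 42.9%, against 66.7% and 56%. Under that scaling all 12 alpha probes stayed positive in both line comparisons, with 3 and 2 called against 9 and 6. With single arrays left out, the calls were 0 to 0 after ST5589, 16 to 24 under DMSO and 17 to 28 under ST5589 (all probes 38.2% to 47.5% and 38.1% to 48.4%), with medians of -0.06 to -0.02 in TMD8, -0.14 to -0.03 in DOHH2, -0.09 to 0.03 for the difference of effects, 0.03 to 0.20 under DMSO and 0.06 to 0.12 under ST5589. Without the 3 arrays that lay apart (chosen after seeing the data), 29 probes were called under DMSO (15 higher, 14 lower) and 31 under ST5589 (17 and 14), where 54.3% and 55.9% of all probes were. These include 19 of the 21 and 25 of the 25 calls made with all arrays, in the same direction. There 8 of 50 probes changed sign under DMSO: PSMB7 (to -0.2343), the brightest and the third PSMB8 probe, 3 of PSMD4, and 1 each of PSMA4 and PSMD10. Under ST5589 2 did (PSMA4 and PSMD4). The share of calls that were higher under DMSO was 51.7%.

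The replicate block, which the numbers do not support as a pairing, gave 0 calls after ST5589 and 18 in each line comparison (all probes 40.4% and 40.5%). PSMB5 under ST5589 lost its call with the block (limma adjusted p = 0.0674), under median scaling (0.386), and without TMD8 ST5589 array 1 or 3 or DOHH2 ST5589 array 1 or 2 (0.0624 to 0.125). Under DMSO it was called without TMD8 DMSO array 1 (0.0327) or DOHH2 DMSO array 1 (0.012). PSMB10 under ST5589, and PSMA2 and PSMD2 in both comparisons, lost their calls under median scaling only. Over all probes, calls in TMD8 numbered 117, and 10 under median scaling, 32 with the block and 469 with array weights. The median standard error of a difference between groups was 0.11, which limits what 3 arrays a group could show.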
